A study of Mus musculus with 20 samples.

Results

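Oxidative phosphorylation genes were examined in the proximal colon (PC) of mice fed resistant potato starch (RPS). The members were the protein-coding genes of the count table whose symbol starts with Nduf, Uqcr, Atp5 or mt-, starts with Cox4 to Cox8, or is Sdha, Sdhb, Sdhc, Sdhd, Cyc1 or Cycs. This rule took 109 of 12701 genes, of which 96 are nuclear-encoded and 13 are encoded by the mitochondrial genome. Among the nuclear members were 45 genes of complex I (30 accessory subunits, 7 core subunits and 8 assembly factors), 4 of complex II, 9 of complex III, 18 of complex IV, 19 of complex V and cytochrome c. All 109 had counts in at least 1 library and were tested in DESeq2. Cox5b-ps and a second gene named Atp5po (ENSMUSG00000116933) were too low for edgeR's filter and for an adjusted p at 10% RPS. Cox6a2, Cox7b2, Cox8c and Ndufb11b are in the annotation and were not analysed here.

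RNA came from bulk PC of 20 C57BL/6 mice, an inbred strain, with 5 libraries per diet and 1 mouse per library. All mice received the Total Western Diet (TWD), a purified diet that imitates American nutrient intake, for 6 weeks from weaning, at 3 weeks of age. They then ate the TWD alone (0% RPS) or the TWD with 2, 5 or 10% RPS for 3 weeks, so that every group, controls included, ate the TWD throughout. The segment holds mucosa and muscle together, and in such tissue fewer cells of a type cannot be told apart from less RNA per cell. All 11 epithelial markers, all 7 goblet cell markers and all 10 smooth muscle markers were in the table, with summed levels of 433060 to 864500 normalised counts for epithelium and 143870 to 337170 for smooth muscle. Of 8 striated muscle markers 6 were not in the table. A normalised count is the read count divided by the DESeq2 size factor of its library. Total counts were 20581013 to 35083751 per library. Replicate 2 of the 0% RPS diet stood apart by its immune marker sum of 15807, against 3354 to 7737 in the other libraries. Replicate 1 of the 10% RPS diet stood apart by its adipose marker sum of 27646, against 1273 to 10837 in the others.

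Oxidative phosphorylation takes place at the inner mitochondrial membrane. Complexes I and II pass electrons from NADH and succinate to ubiquinone, complex III passes them to cytochrome c, and complex IV passes them to oxygen, while complexes I, III and IV pump protons whose return drives ATP synthesis by complex V. Complex II is wholly nuclear-encoded, whereas the other complexes join nuclear subunits made in the cytosol to subunits translated inside the mitochondrion. Colonocytes are known for oxidising butyrate, the short-chain fatty acid made by bacteria from fermented starch, through this chain.

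Nuclear and mitochondrial members differ in how they are arranged, and the sequences below are shown for that reason. RefSeq promoters (GRCm38.p6, the 250 bases before the gene start) matched 63 of the 96 nuclear members. A motif like a nuclear respiratory factor 1 site, not a palindrome and with any base allowed at 1 position, was searched on both strands. It lay in 10 of the 63 (15.9%), against 3.74% of all 32851 promoters of the same length. CCGGAAG, like an ETS family site, lay in 10 of the 63 (15.9%) against 6.91% of all. AAGGTCA, like an estrogen-related receptor site, lay in 3 of the 63 (4.76%) against 4.08% of all. Cox6a1 and Sdhd were the members that held both of the first 2 motifs. They are printed with Cycs, the member with the smallest p at 10% RPS. Cycs held no full match to any of the 3, and near matches were not counted. Capitals mark the motifs, each sequence runs 5′ to 3′ on the strand of its gene, and a match is a description of letters only.
Cox6a1, chr5:115348959-115349208, minus strand: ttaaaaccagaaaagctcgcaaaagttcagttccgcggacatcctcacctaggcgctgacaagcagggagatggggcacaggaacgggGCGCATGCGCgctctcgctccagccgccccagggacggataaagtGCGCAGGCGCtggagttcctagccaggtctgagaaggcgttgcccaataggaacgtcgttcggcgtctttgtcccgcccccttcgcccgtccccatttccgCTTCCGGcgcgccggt
Sdhd, chr9:50603850-50604099, minus strand: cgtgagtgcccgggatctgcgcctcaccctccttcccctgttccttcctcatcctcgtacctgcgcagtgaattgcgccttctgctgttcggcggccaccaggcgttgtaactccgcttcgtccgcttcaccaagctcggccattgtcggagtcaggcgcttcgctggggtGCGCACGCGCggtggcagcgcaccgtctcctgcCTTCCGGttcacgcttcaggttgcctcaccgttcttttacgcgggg
Cycs, chr6:50566570-50566819, minus strand: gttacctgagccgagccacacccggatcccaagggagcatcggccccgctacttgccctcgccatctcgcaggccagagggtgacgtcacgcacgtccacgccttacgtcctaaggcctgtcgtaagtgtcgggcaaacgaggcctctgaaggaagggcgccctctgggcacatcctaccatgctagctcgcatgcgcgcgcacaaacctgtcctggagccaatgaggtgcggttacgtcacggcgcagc

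The mitochondrial members have no promoters of their own and lie end to end on 1 circular genome. The coding sequences of mt-Atp8 and mt-Atp6, both subunits of complex V, share 43 bases at chrM:7927-7969 on the plus strand (GRCm39), which is 21.1% of mt-Atp8.
mt-Atp8 and mt-Atp6 overlap: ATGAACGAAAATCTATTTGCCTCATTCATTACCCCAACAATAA
Reads from these bases cannot be told apart between both genes. mt-Nd6 (chrM:13552-14070, minus strand) overlaps mt-Nd5 (chrM:11742-13565, plus strand) on opposite strands. Of 50-base windows, the read length of the study, 100% in mt-Co2, mt-Co3, mt-Atp6, mt-Atp8 and mt-Nd4l also occurred in the nuclear genome, as did 99% in mt-Nd3, 62.2% in mt-Nd4 and 51.1% in mt-Co1. In mt-Nd1, mt-Nd6 and mt-Cytb the share was 0%. Levels of the first 8 genes are therefore uncertain to the extent that the authors' counting split or discarded such reads.

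Per transcript length, the mitochondrial members were the most abundant of the chain. Levels between genes are compared as CPM per kb, the CPM of a library (counts scaled to an equal library total) divided by the length of the canonical transcript in kb, as the mean of 20 libraries. The 13 mitochondrial members had a median level of 3680 CPM per kb, from 1333 for mt-Nd5 to 24070 for mt-Co1, the catalytic core of complex IV. The 96 nuclear members had a median level of 109 CPM per kb and reached 984 for Cox4i1, so that the lowest mitochondrial member lay above the highest nuclear one. By complex, the nuclear medians were 84.8 for complex I, 110.5 for complex II, 195 for complex III, 243 for complex IV and 241 CPM per kb for complex V. Cycs, the soluble carrier cytochrome c, stood at 18.5 CPM per kb, well under its membrane-bound partner Cyc1 in complex III at 195.

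**Figure D1:**
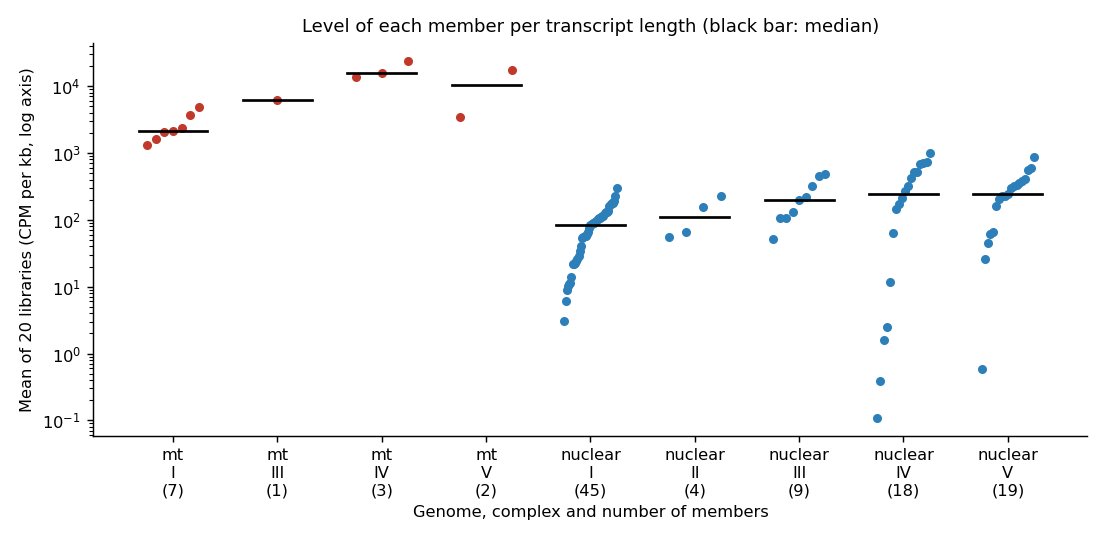
Mean level of each member over 20 libraries, in CPM per kb on a log axis, by genome and complex, with the number of members below each column and a black bar at the median. All 13 mitochondrial members (red) lie at 1333 CPM per kb or above, and all nuclear members (blue) lie at 984 or below.

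Within complex I the levels ran from 3.12 CPM per kb for the assembly factor Ndufaf1 to 299 for the accessory subunit Ndufa6. In complex II the membrane anchor Sdhd was highest (230) and the iron-sulfur subunit Sdhb lowest (55.5 CPM per kb). Complex III ranged from Uqcr11 (51.8) to Uqcrb (481 CPM per kb), and complex V reached 858 CPM per kb for Atp5f1b, the catalytic beta subunit. Levels per kb, here and above, depend on the canonical length, such as 4030 bases for Sdhb and 1258 for Sdhd. Without that division, Sdhb had a mean of 5690 normalised counts at 0% RPS and Sdhc 5497. Uqcr11 had 3606 against 6585 for Uqcrb. The lowest nuclear members were Cox5b-ps at 0.109 CPM per kb, with 0 to 4.38 normalised counts per library, and the second Atp5po gene at 0.580 CPM per kb. Cox5b-ps shared 65.0% of its 50-base windows with Cox5b, and its counts cannot be told apart from misplaced reads.

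Subunits with tissue-specific isoforms followed 1 pattern in these libraries. The broadly expressed isoform exceeded its counterpart in level, with 984 against 2.49 CPM per kb for Cox4i1 and Cox4i2, 512 against 11.7 for Cox6b1 and Cox6b2, 728 against 0.390 for Cox8a and Cox8b, and 419 against 1.61 for Ndufa4 and Ndufa4l2. Cox7a1, the heart and muscle form of subunit 7a, was less far below its broad form, at 63.3 against 214 CPM per kb for Cox7a2. Cox7a2l, a relative of Cox7a2, was at 171 CPM per kb. The genes Atp5mc1, Atp5mc2 and Atp5mc3, which encode the same mature subunit of the complex V ring, stood at 414, 335 and 554 CPM per kb. Of the 50-base windows of Atp5mc1 and Atp5mc2, 84.4% and 88.4% also occurred elsewhere in the genome.

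The comparison of the starch diets with 0% RPS asked whether RPS altered these genes and whether both genomes moved alike. Most nuclear members had higher fitted levels in the starch diets, by small amounts. The nuclear median log2 fold change was 0.16 at 2% RPS (91 of 96 genes above 0), 0.14 at 5% (89 of 96) and 0.09 at 10% (82 of 96), while the median over all 12561 genes tested was -0.01, -0.01 and 0.00. The mitochondrial median was -0.05 (6 of 13 above 0), -0.07 (4 of 13) and 0.01 (7 of 13). The 3 comparisons share the same 5 control libraries, so their values are not independent of each other.

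**Figure D2:**
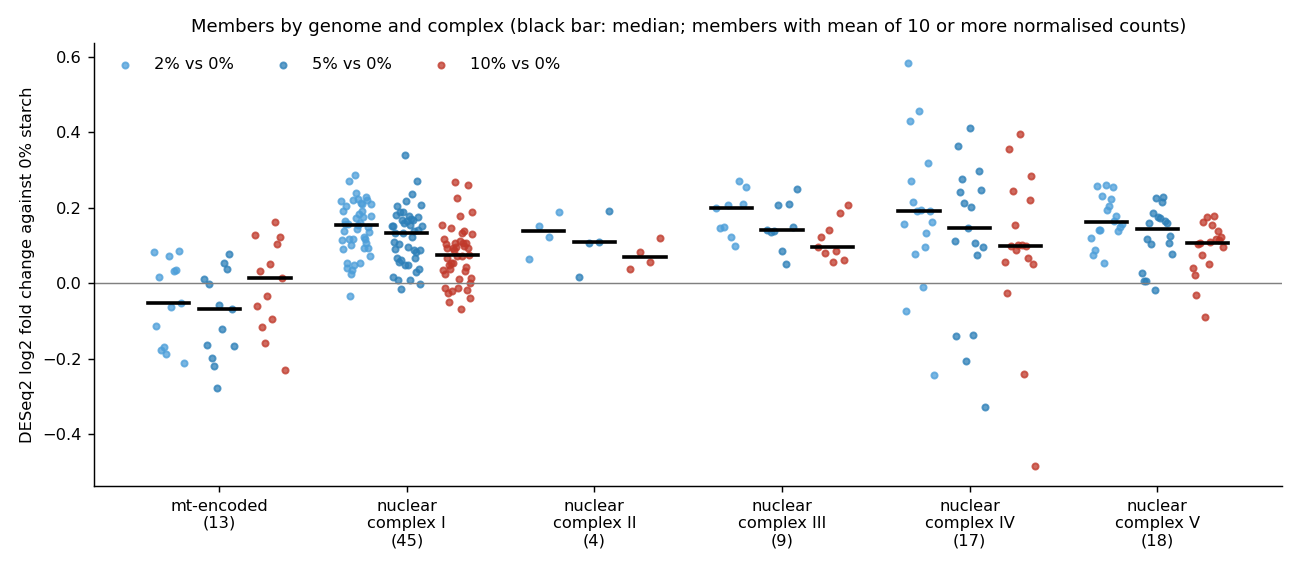
DESeq2 log2 fold change of each member against 0% RPS, with 1 point per gene, for mitochondrial members and nuclear members of complexes I to V, and black bars at the medians. Cycs and the 2 members with a mean under 10 normalised counts are not drawn. The nuclear medians lie above 0 in all 5 complexes and the mitochondrial points spread to both sides of 0.

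By the thresholds of the study, an adjusted p up to 0.05 together with at least a 1.5-fold change, 0 of 109 members passed in DESeq2 at 2, 5 or 10% RPS, where 0.0239%, 0.438% and 0.9% of all genes passed. edgeR's quasi-likelihood test also called 0 members at each level. By adjusted p alone, without the fold threshold, 0 members passed at 2% RPS (0.0239% of all genes), 1 at 5% (1.9%) and 5 at 10% (4.6%), and edgeR gave 0, 0 and 0 (0.0%, 0.089% and 0.987% of all genes). The DESeq2 counts moved with single mice. Without replicate 1 of the 0% diet 25, 16 and 9 members passed (1.55%, 4.02% and 4.9% of all genes). Without replicate 4 of that diet 0, 0 and 0 passed (0.0159%, 0.518% and 2.15%), and without its replicate 5 also 0, 0 and 0 (0.00796%, 0.51% and 1.8%). At 5% RPS the count was 0 without replicate 1, 2 or 3 of that diet (0.804%, 0.542% and 0.526%). At 10% RPS it was 0 without replicate 3 of that diet (1.67%), 2 without replicate 5 (1.66%) and 2 without replicate 1, the library with the high adipose sum (4.55%). Without replicate 2 of 0% RPS, the library with the high immune sum, 0, 2 and 3 members passed (0.0557%, 4.1% and 7.66%). The 5 members at 10% RPS were all nuclear, with 4 higher (2.71% of all genes were called higher) and 1 lower (1.89%).

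At an unadjusted p under 0.05 in DESeq2, 47 members were higher and 0 lower at 2% RPS, where 5.26% of all genes were higher and 3.44% lower. All 47 were nuclear. At 5% RPS 29 members were higher and 0 lower, all nuclear, beside 9.23% and 7.39% of all genes. At 10% RPS 15 were higher, 13 of them nuclear, and 2 were lower, beside 10.1% and 8.76% of all genes. edgeR gave 43, 29 and 12 members in either direction at these levels, beside 8.09%, 15.9% and 18.0% of all genes. Such counts carry no correction for multiple testing, and genes of a pathway that vary together between mice are not separate observations.

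These counts, too, moved with single control mice, as did those over all genes. Without replicate 4 of the 0% diet they were 20, 14 and 14 at 2, 5 and 10% RPS, in either direction, where 5.37%, 11.6% and 15.1% of all genes had such a p. Without replicate 5 of that diet they were 26, 17 and 13 (6.47%, 11.8% and 13.6%). Without replicate 1 of that diet they were 70, 59 and 38 (14.2%, 19.6% and 20%). Replicate 4 of 0% RPS was the lowest of all 20 libraries for 53 of 96 nuclear members and the highest for 7 of 13 mitochondrial members. At the other end, replicate 3 of 10% RPS was the highest library for 38 of 96 nuclear members. Without replicate 4 of 0% RPS the nuclear medians were 0.12, 0.09 and 0.05 (log2 fold change). Without replicate 1 of 10% RPS the nuclear median at 10% was 0.06 and the mitochondrial median 0.07.

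Markers of the cell types in the segment were measured beside these values. The summed level of the epithelial markers was 589280 ± 116270 normalised counts (SD, n = 5) at 0% RPS, 723490 ± 82377 at 2%, 695480 ± 39562 at 5% and 764110 ± 97293 at 10%. Car1 was the largest part of this sum, with a mean of 321200 normalised counts over all libraries. The median log2 fold change over the 11 markers was 0.12, 0.10 and 0.13 at 2, 5 and 10% RPS. A link to the nuclear medians was not tested. Of the 11 epithelial markers 9, 8 and 9 were above 0, and 0, 1 and 2 passed by adjusted p in DESeq2, while edgeR called 0. The 2 at 10% RPS were Krt20 and Epcam, with log2 fold changes of 0.47 ± 0.13 (SE, adjusted p = 0.0193) and 0.19 ± 0.05 (adjusted p = 0.00666). The transporters of surface colonocytes lay the other way, with -2.13 ± 0.97, -2.52 ± 0.97 and -0.93 ± 0.97 for Aqp8 and -0.29 ± 0.27, -0.47 ± 0.27 and -0.43 ± 0.27 for Slc26a3. Neither passed by adjusted p. With the mean log2 level of the epithelial markers as a covariate in DESeq2, the nuclear median was 0.13, 0.13 and 0.04 at 2, 5 and 10% RPS, and 0, 10 and 2 members passed by adjusted p (0.0318%, 3.9% and 3.07% of all genes).

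Some of the other marker lists leaned to 1 side, and some changed side between starch levels. All 7 goblet cell markers were above 0 at each starch level, with medians of 0.28, 0.41 and 0.47 (log2 fold change). Their sum was 580020 ± 143780 normalised counts at 0% RPS, 664130 ± 139230 at 2%, 754570 ± 44536 at 5% and 798740 ± 187650 at 10% (SD, n = 5). Of the 10 smooth muscle markers 9, 10 and 10 were below 0, with medians of -0.11, -0.30 and -0.20. Of the 7 markers of enteric neurons and glia 6 were above 0 at 2% RPS, 5 were below 0 at 5%, and all 7 were below 0 at 10%, with a median of -0.21 there. Of the 5 immune markers 4 were below 0 at each level. The 6 adipose markers were above 0 at 2 and 10% RPS and below 0 at 5%, and striated muscle markers stood at 791 to 1410 summed normalised counts. None of the markers in these lists passed by adjusted p in DESeq2 or edgeR against 0% RPS. In the DESeq2 trend 1 goblet cell marker passed upwards and 1 marker of enteric neurons and glia downwards, beside 4.29% of all genes. edgeR called 0 of both lists there. The part of these markers in the results was not tested.

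The median log2 fold change of the nuclear genes was above 0 in each complex at each starch level. At 2% RPS 44 of 45 nuclear complex I genes were above 0, with a median log2 fold change of 0.16. In DESeq2 18 of them were higher at an unadjusted p under 0.05, beside 5.26% of all genes. Over all members this count moved from 47 to 20 without replicate 4 of 0% RPS. All 30 accessory subunits were above 0 at 2% and at 5% RPS, with medians of 0.17 and 0.15, and 25 of 30 at 10% with 0.08. The 7 core subunits, which hold the redox centres, had medians of 0.11, 0.07 and 0.01. The 8 assembly factors, which build the complex but are not part of it, had medians of 0.08, 0.15 and 0.09.

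All 4 complex II genes and all 9 nuclear complex III genes had log2 fold changes above 0 at each starch level. The complex II medians were 0.14, 0.11 and 0.07, and those of complex III were 0.20, 0.14 and 0.10. Sdhd had 7970, 7197, 7834, 6500 and 6385 normalised counts at 0% RPS and 8253, 8210, 7945, 7622 and 8868 at 2%. Of the 5 libraries at 2%, 3 lay above all controls and 2 overlapped with them (log2 fold change 0.19 ± 0.07 SE, adjusted p = 0.421). Sdha, the flavoprotein subunit that oxidises succinate, had fold changes closer to 0, at 0.06 ± 0.06, 0.02 ± 0.06 and 0.04 ± 0.06 on the log2 scale.

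In complex V 18, 18 and 16 of the 19 nuclear genes were above 0, with medians of 0.16, 0.13 and 0.11. Atp5f1b, its most abundant nuclear member per length, had log2 fold changes of 0.07 ± 0.06, 0.00 ± 0.06 and 0.02 ± 0.06. Of the ring subunit genes, Atp5mc3 stood at 0.26 ± 0.10 at 2% RPS (unadjusted p = 0.00689, adjusted p = 0.421) and Atp5mc2 at 0.05 ± 0.06. In complex IV 15, 14 and 15 of 18 nuclear genes were above 0, with medians of 0.19, 0.13 and 0.10 and the widest range of the 5 complexes.

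Within the mitochondrial genome the complex IV subunits lay above 0, while the complex I subunits lay on both sides of it. mt-Co1, mt-Co2 and mt-Co3, the core of complex IV, all had log2 fold changes above 0 at each starch level, between 0.03 and 0.09 at 2% RPS and between 0.10 and 0.16 at 10%. Of the 7 mt-Nd genes of complex I 4, 6 and 4 were below 0 at 2, 5 and 10% RPS, and mt-Nd1 was above 0 at all 3 levels. mt-Cytb, the heme subunit of complex III, was below 0 at all 3 levels (-0.06 ± 0.08, -0.12 ± 0.08 and -0.09 ± 0.08). None of these 11 genes passed by adjusted p, and the difference between both groups of genes was not tested.

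mt-Co1 alone took 3.67 ± 0.29% of all counts at 0% RPS and 3.89 ± 0.16% at 10% (SD, n = 5). Its normalised counts were 930210, 948400, 871920, 1049200 and 1013800 at 0% RPS and 1018400, 1112400, 1089500, 1077000 and 1087100 at 10%. The groups overlapped in 1 library of each, and the log2 fold change of 0.16 ± 0.08 did not pass (unadjusted p = 0.0365, adjusted p = 0.225). mt-Co3 had 284800, 283530, 247130, 287280 and 277920 normalised counts at 0% RPS and 292910, 305190, 312580, 302970 and 288180 at 10%. All 5 libraries at 10% RPS lay above all 5 at 0%, and the log2 fold change was 0.12 ± 0.05 (adjusted p = 0.174).

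Of the mt-Nd genes, mt-Nd4l and mt-Nd5 spread most between mice, with standard errors of 0.16 and 0.15 against 0.07 for mt-Nd1 (log2 fold change). mt-Nd5 had 55256, 58964, 72119, 92844 and 77797 normalised counts at 0% RPS and 57757, 68441, 52415, 70326 and 45227 at 5%. Its log2 fold change at 5% was -0.28 ± 0.15 (adjusted p = 0.345), with overlapping groups. The other log2 fold changes at 5% RPS were -0.20 ± 0.11 for mt-Nd4, -0.22 ± 0.16 for mt-Nd4l, -0.16 ± 0.10 for mt-Nd2, -0.06 ± 0.09 for mt-Nd6, -0.001 ± 0.08 for mt-Nd3 and 0.01 ± 0.07 for mt-Nd1. None of the 50-base windows of mt-Nd6 and mt-Nd1 occur elsewhere in the genome.

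mt-Atp8, the small membrane subunit of complex V, was the most variable mitochondrial member. It ranged from 7106 normalised counts in replicate 1 of 10% RPS to 30400 in replicate 4 of 0% RPS, and its log2 fold change at 10% was -0.23 ± 0.26 (adjusted p = 0.66). Replicate 1 of 10% RPS is the library with the high adipose marker sum, and without it the log2 fold change was -0.03 (adjusted p = 0.957). mt-Atp6, which forms the proton channel with the ring, had log2 fold changes of -0.05 ± 0.09, -0.07 ± 0.09 and 0.01 ± 0.09 at the 3 levels. For both genes the differences from 0% RPS were within the spread between mice.

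The mitochondrial share of a library can be set against its nuclear share without any size factor. The 13 mitochondrial members took 9.65 ± 0.76% of all counts at 0% RPS, 9.37 ± 0.96% at 2%, 9.27 ± 0.51% at 5% and 9.67 ± 0.59% at 10% (SD, n = 5). The 96 nuclear members took 1.83 ± 0.14%, 1.99 ± 0.08%, 1.92 ± 0.05% and 1.84 ± 0.16%. The ranges of both shares overlapped between 0% RPS and each starch diet.

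The log2 ratio of summed mitochondrial to summed nuclear counts was 2.16, 2.44, 2.20, 2.68 and 2.52 in the 5 libraries of 0% RPS. At 2% RPS it was 2.00, 2.04, 2.42, 2.44 and 2.24, at 5% 2.30, 2.31, 2.18, 2.43 and 2.14, and at 10% 2.14, 2.60, 2.27, 2.55 and 2.43. The ranges overlapped in every pair of diets. The mean ratio differed from 0% RPS by -0.17 at 2%, -0.13 at 5% and -0.0025 at 10% on the log2 scale, beside a SD of 0.22 among the 0% libraries. Without replicate 4 of 0% RPS the differences were -0.10, -0.06 and 0.07. Under 4 other choices of members, measure or libraries they lay between -0.21 and -0.17 at 2%, and -0.23 and -0.13 at 5%. At 10% that range was -0.11 to -0.0022.

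**Figure D3:**
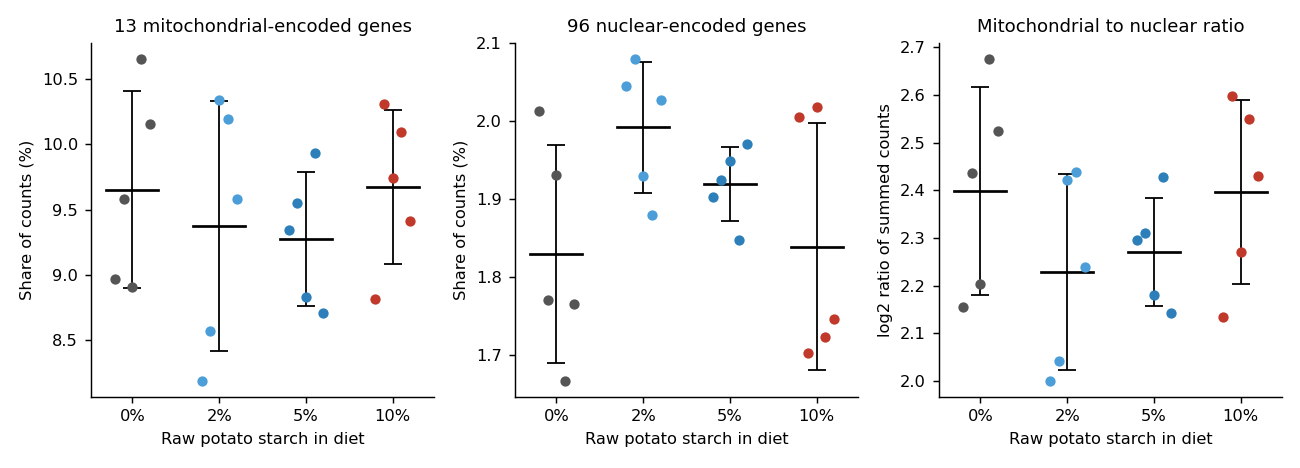
Share of all counts taken by the 13 mitochondrial members (left) and the 96 nuclear members (middle), in percent, and the log2 ratio of their summed counts (right), by diet. Points are libraries, and bars are the mean with 1 SD (n = 5). The ratio runs from 2.00 to 2.68 and the diets overlap in each panel.

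Cycs, which carries electrons from complex III to complex IV and activates caspases when released from mitochondria, had the smallest p of all members at 5 and 10% RPS. It had 1361, 1221, 1495, 1008 and 1114 normalised counts at 0% RPS, 1628, 1636, 1532, 1420 and 1672 at 2%, 1911, 1932, 2067, 1348 and 1521 at 5%, and 1813, 1472, 2334, 1490 and 1744 at 10%. At least 3 libraries of each starch diet exceeded the highest library of 0% RPS, and the lowest 3 libraries of all were in the 0% diet. On the log2 scale Cycs rose by 0.50 ± 0.14 (SE, adjusted p = 0.027) at 5% RPS and by 0.51 ± 0.14 (adjusted p = 0.0117) at 10%, which are folds of 1.42 and 1.43. It also passed in the trend over the 4 diets (0.04 ± 0.01 log2 units per 1% RPS, adjusted p = 0.0418) and in the likelihood ratio test over all diets (adjusted p = 0.0335), where 4.29% and 2.38% of all genes passed. The adjusted p at 10% was 0.065 in edgeR, 0.0621 without replicate 4 of 0% RPS, 0.0602 without replicate 5 of that diet and 0.0866 without replicate 3 of 10% RPS. Of its 50-base windows 38.0% also occur elsewhere in the genome and 30.2% in transcripts of other genes. For Gm10053, another gene of the table, the share was 27.2%.

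Complex I contributed a pair of accessory subunits. Ndufb1 had 1945, 1881, 1861, 1652 and 1634 normalised counts at 0% RPS and 2257, 1933, 2331, 1998 and 1974 at 10%, so that only replicate 2 of the 10% diet fell within the range of the controls. At 10% RPS Ndufb1 rose by 0.23 ± 0.07 (log2, adjusted p = 0.0324). It also passed in the likelihood ratio test (adjusted p = 0.0479). Of its windows, 52.2% also occur in transcripts of Cpsf2, a gene on the opposite strand. Ndufs4, which is needed for a stable NADH-oxidising arm, had 2368, 2102, 2207, 1907 and 1990 normalised counts at 0% RPS and 2725, 2211, 2968, 2252 and 2512 at 10%. Of the 5 libraries at 10% 3 lay above all controls, and the log2 fold change was 0.26 ± 0.08 (adjusted p = 0.047).

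Complex IV held the last pair, which passed in opposite directions. Cox7a1 had 777, 598, 664, 462 and 513 normalised counts at 0% RPS and 881, 658, 1004, 715.1 and 705 at 10%. Cox7a1 rose (0.40 ± 0.13 on the log2 scale, adjusted p = 0.0472), and the groups overlapped. The 2 striated muscle markers in the table summed to 1118 ± 215 normalised counts at 0% RPS and 992 ± 170 at 10% (SD, n = 5).

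Cox7a2l had 6992, 6064, 5834, 5695 and 6260 normalised counts at 0% RPS, 5756, 6186, 6359, 6626 and 5715 at 2%, 4959, 5243, 5480, 6161 and 6174 at 5%, and 5694, 5680, 4814, 5117 and 4770 at 10%. Every library at 10% RPS lay below every library at 0%, though the nearest were 5694 and 5695, whereas the 2% libraries covered the same range as the controls. It fell by 0.24 on the log2 scale at 10% (SE 0.08, adjusted p = 0.0466) and passed in the trend (-0.03 ± 0.01 log2 units per 1% RPS, adjusted p = 0.014). It was the member with the smallest p in the trend, and the only member that passed downwards in any comparison with 0% RPS. Of its windows, 66.3% also occur in transcripts of other genes, and 46.8% occur in Gm61259, a noncoding gene that is not in the table.

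**Figure D4:**
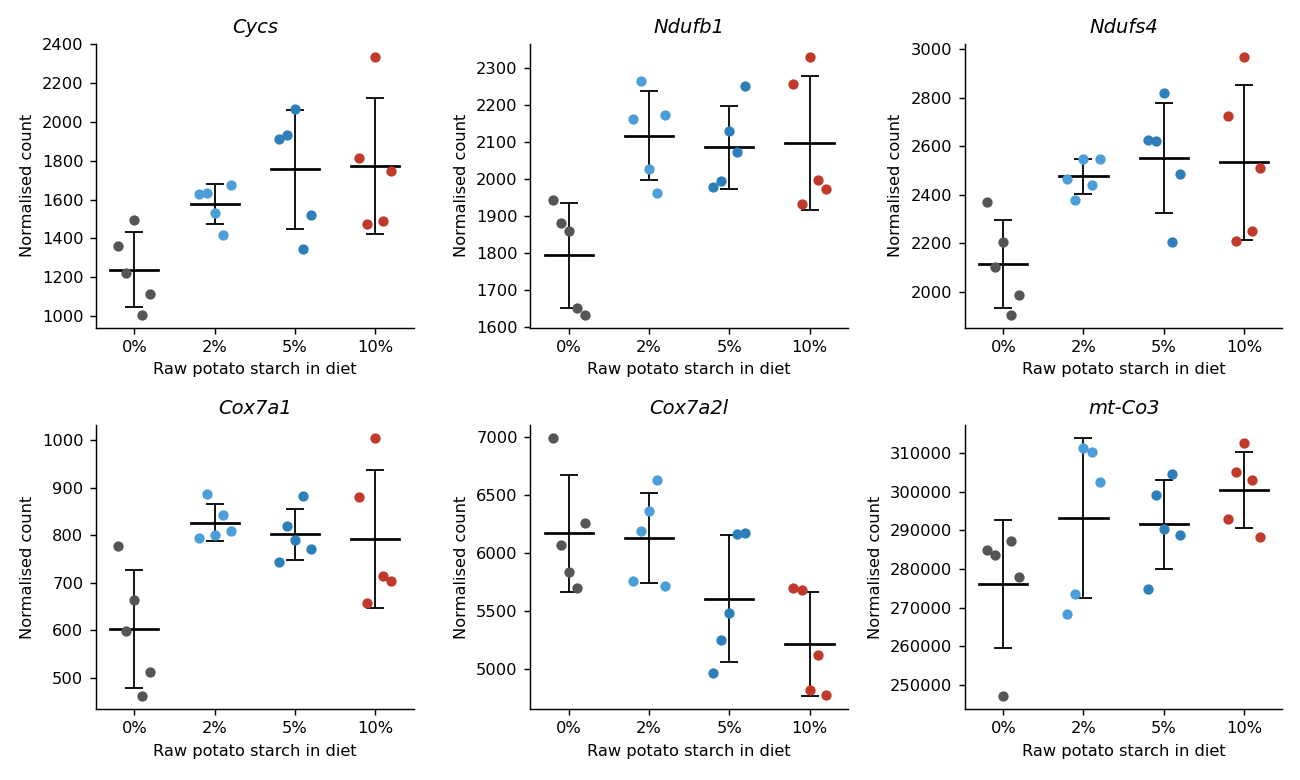
Normalised counts of the 5 members that passed by adjusted p at 10% RPS and of mt-Co3, by diet. Points are libraries, and bars are the mean with 1 SD (n = 5). Cycs, Ndufb1, Ndufs4 and Cox7a1 have their lowest means at 0% RPS, and Cox7a2l has its lowest mean at 10%.

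The 4 calls other than Cycs were close to the threshold. In edgeR their adjusted p was 0.0896 for Ndufb1, 0.104 for Ndufs4, 0.11 for Cox7a1 and 0.11 for Cox7a2l. When 1 of the 10 libraries of the 0 and 10% diets was left out in turn, Cycs kept an adjusted p of 0.05 or less in 7 of 10 fits, Ndufb1 in 6, and Ndufs4, Cox7a1 and Cox7a2l in 4 each. The highest adjusted p arose without replicate 3 of 10% RPS for Cycs, Ndufb1, Ndufs4 and Cox7a1 (0.0866, 0.147, 0.206 and 0.216) and without replicate 5 of 10% RPS for Cox7a2l (0.181). Without replicate 1 of 10% RPS, the library with the high adipose sum, Cycs and Cox7a2l passed (0.0264 and 0.0279) and Ndufb1, Ndufs4 and Cox7a1 did not (0.086, 0.107 and 0.106).

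A few members had groups that did not overlap with 0% RPS. At 2% RPS these were Ndufb1, Ndufs4 and Cox7a1, all higher, beside 0.477% of all genes. At 5% RPS they were Ndufab1, Ndufaf8, Ndufb1, Uqcrq, Cox5a and Cox6a1, all higher, beside 1.46% of all genes. At 10% RPS they were mt-Co3 (higher, 1.35% of all genes) and Cox7a2l (lower, 1.17%). Ndufb1 had 2162, 2264, 2028, 1963 and 2173 normalised counts at 2% RPS and 1979, 1996, 2130, 2072 and 2252 at 5%. Its levels at the 3 starch doses thus lay together, with means of 2118 ± 121, 2086 ± 111 and 2098 ± 182 against 1794 ± 142 at 0% (SD, n = 5).

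A group of 4 nuclear complex IV subunits varied jointly between mice of the 2% and of the 10% diet. Cox5a, Cox5b, Cox6a1 and Cox8a were set side by side after their values were seen. At 2% RPS Cox5a had 9304, 9342, 5231, 5257 and 7054 normalised counts, Cox5b had 5376, 4988, 3157, 3054 and 4372, and Cox8a had 14430, 14182, 8762, 9300 and 13077. In all 3 genes replicates 1, 2 and 5 were high and replicates 3 and 4 lay near the 0% RPS means of 4825, 3108 and 9580. Cox6a1 showed the same order, with 13008, 12725 and 12137 against 9428 and 10053. Cox4i1, another nuclear subunit of the complex, did not, with 21763, 21780 and 20671 in replicates 1, 2 and 5 and 23536 and 21913 in the others. The order was not particular to these 4 genes. Nuclear members had mean log2 levels of 11.51, 11.54 and 11.51 in replicates 1, 2 and 5, against 11.44 and 11.37. The epithelial marker sum was 753700, 821360 and 764790 normalised counts in those replicates, against 621490 and 656100. A link between these values was not tested.

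**Figure D5:**
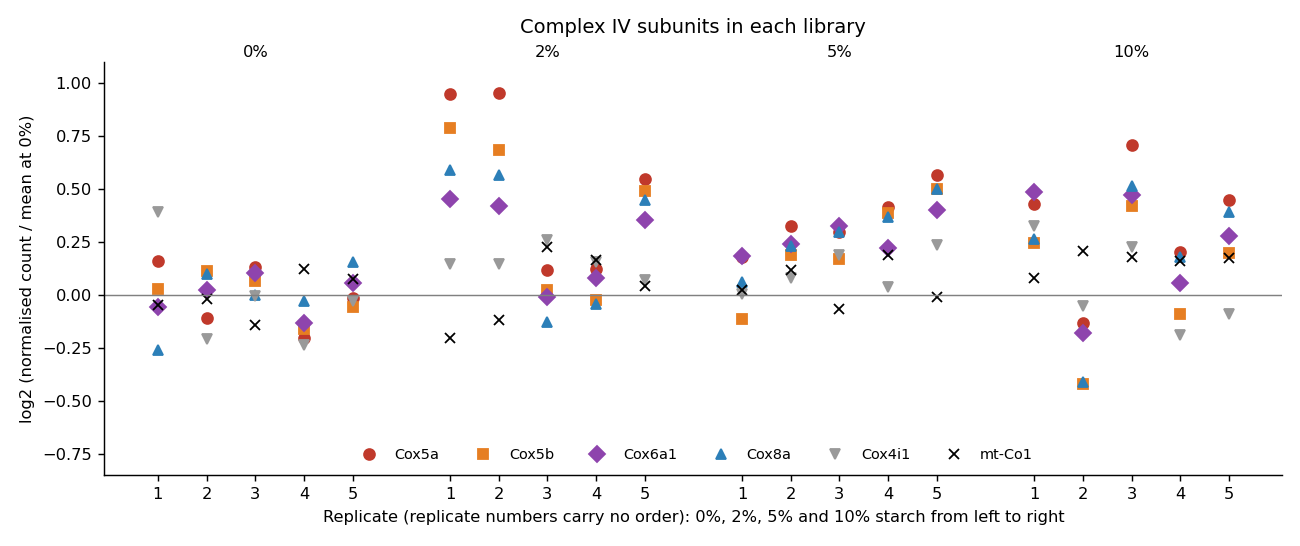
log2 of the normalised count over the 0% RPS mean for 6 complex IV genes in each library, with the 5 replicates of each diet side by side. Cox5a, Cox5b, Cox6a1 and Cox8a stand high in replicates 1, 2 and 5 at 2% RPS and low in replicate 2 at 10% RPS, while Cox4i1 and mt-Co1 do not follow them.

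At 10% RPS replicate 2 was the lowest library of the diet for all 4 genes. Replicate 3 was the highest for Cox5a, Cox5b and Cox8a and the second highest for Cox6a1. Replicates 2 and 3 also had the diet's lowest and highest mean log2 level of nuclear members (11.23 and 11.56). The same held for the epithelial marker sum (618970 and 864500 normalised counts). Cox5a ranged from 4402 in replicate 2 to 7879 in replicate 3, and Cox8a from 7211 to 13672. At 0% RPS their spread was smaller, with SDs of 513 for Cox5a and 228 for Cox5b against 2042 and 1053 at 2%. Cox5a had the largest log2 fold change of the members with 10 or more counts at 2% RPS (0.58 ± 0.16, unadjusted p = 0.000381, adjusted p = 0.219), with 0.36 ± 0.16 at 5% and 0.36 ± 0.16 at 10%, and it passed in none of them. Cox5b stood at 0.43 ± 0.16, 0.24 ± 0.16 and 0.10 ± 0.16.

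The minor isoforms were low in every diet. Cox4i2, Cox6b2 and Cox8b had log2 fold changes at 10% RPS of -0.03 ± 0.18, 0.09 ± 0.13 and 0.29 ± 0.37. Ndufa4l2, a hypoxia-responsive relative of Ndufa4, had the lowest value of all members at 10% (-0.48 ± 0.23, unadjusted p = 0.0313, adjusted p = 0.21). Its normalised counts were 65.8, 60.4, 47.3, 42.2 and 34.2 at 0% RPS and 36.5, 36.9, 43.0, 24.2 and 37.7 at 10%, with overlapping groups. Of its windows 74.1% also occur in Shmt2.

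Between 10 and 2% RPS 0 members passed in DESeq2 by adjusted p and 0 in edgeR, beside 0.143% of all genes in DESeq2, and 7 had an unadjusted p under 0.05, all lower at 10% (4.16% of all genes were lower). Between 10 and 5% RPS 0 members passed (0.0159% of all genes), with 1 higher at an unadjusted p under 0.05 (2.58%), and between 5 and 2% RPS 0 passed (0% of all genes), with 1 lower (1.22%). edgeR called 0 in both. The nuclear medians of these log2 differences were -0.07, -0.04 and -0.03, and the mitochondrial medians 0.04, 0.08 and -0.02. In the trend 2 members passed, Cox7a2l and Cycs.

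Other genes of mitochondrial energy supply were counted from gene lists, beside 0.0239%, 1.9% and 4.6% of all genes by adjusted p in DESeq2 and 8.7%, 16.6% and 18.8% by an unadjusted p under 0.05. Of 24 genes of mitochondrial biogenesis and mitochondrial DNA expression 0 passed by adjusted p in DESeq2 at any starch level, and 1, 5 and 1 had an unadjusted p under 0.05. edgeR gave 0 by adjusted p and 1, 4 and 1 by unadjusted p. The transcription factor Tfam stood at 0.09 ± 0.06, the coactivator Ppargc1a at -0.11 ± 0.22 and the receptor Esrra at 0.05 ± 0.08 (log2 fold change at 10% RPS). Of 37 assembly factors outside the members 2 rose at 5% RPS, the copper chaperone Sco1 (0.25 ± 0.07, adjusted p = 0.027) and Coa6 (0.32 ± 0.09, adjusted p = 0.0293), and 2 at 10%, Coa5 (0.21 ± 0.07, adjusted p = 0.0383) and Pet100 (0.28 ± 0.09, adjusted p = 0.0451). All 4 serve the assembly of complex IV, as do many other genes of this list, and edgeR called none of the 4 by adjusted p. The medians of the 37 were 0.10, 0.11 and 0.10, close to those of the nuclear members.

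Of 13 citric acid cycle genes 1 rose at 10% RPS, Suclg2, a subunit of succinyl-CoA synthetase (0.18 ± 0.06, adjusted p = 0.0289), beside 4.6% of all genes. edgeR called 0 of the 13 by adjusted p. Among 6 carriers and uncoupling proteins Slc25a27, an uncoupling protein relative known from neurons, fell by 0.42 at 5% (SE 0.13, adjusted p = 0.0463) and by 0.60 at 10% (SE 0.13, adjusted p = 0.000752) on the log2 scale, the second past the 1.5-fold threshold. edgeR called it at 10% RPS and not at 5%. The abundant carriers Slc25a3 and Slc25a5, which import phosphate and exchange ADP for ATP, stood at 0.11 ± 0.06 and 0.09 ± 0.06 at 10%. Of 15 glycolysis genes 0 passed at any level by DESeq2, with 3, 5 and 4 at an unadjusted p under 0.05 in both DESeq2 and edgeR, where edgeR also called 0. In DESeq2 Ldhb passed in the trend (-0.04 ± 0.01 log2 units per 1% RPS, adjusted p = 0.0285), and edgeR called 0 of the 15 there.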

How the data were processed

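RNA from the PC of 20 mice was made into poly-A selected, stranded libraries and sequenced as single reads of 50 bases. The authors trimmed the reads, mapped them to GRCm39 with the CLC Genomics Workbench and deposited 1 table of raw read counts per gene. The annotation, the use of strand, the handling of reads with several matches and the filter behind the 12701 genes are not given in the sources used here. All columns were used (0 left out), and groups came from the diet label.

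Counts were tested in DESeq2 (version 1.42.0, R 4.3.3) with the 4 diets in 1 model over all genes, by Wald tests between diets, a trend over percent RPS and a likelihood ratio test over diets. Adjusted p is Benjamini-Hochberg over all genes tested, and the study's thresholds are 0.05 and 1.5-fold. edgeR (version 4.0.16) was the other tool. Errors of fold changes are standard errors. Both tools were tested on simulated data. The sample titles number mice in a running series across diets, and p-values measure the spread between these mice. In that series 3 libraries are numbered apart, replicate 5 of 2% RPS and replicates 4 and 5 of 10% RPS. Counting floors (3 counts) cover counting error only.

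The members, gene lists and rules were chosen with earlier results of these data known. Named were all mitochondrial members, members called in a comparison with 0% RPS, the trend or the likelihood ratio test, the 5 with the smallest p at 10% RPS and in the trend, the 3 largest rises and falls at 10% RPS with a mean of 10 or more, fixed isoform sets, complex II, Cyc1, Cycs, and the highest and lowest level per complex. Cox5b, the complex IV pattern, the epithelial covariate and the transcript length sets were added after values were seen. Members without overlap between diets are named as counts of 6 or fewer. Alternatives were edgeR, TMM factors, a minimum of 10 counts in 5 libraries, a smooth muscle covariate, no independent filtering, no fold threshold, 2 diets only, 3 libraries left out and each mouse left out. Shared 50-base windows were found by exact match in GRCm39 (GENCODE M39), and figures were drawn with matplotlib 3.10.9.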

Additional observations from a re-analysis of the deposited data

Results flagged for a closer look

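Named members, both shares of counts and their log2 ratio were screened in groups of 5 mice. Of 192 groups 12, all of named members, held 1 library whose gap to the nearest other exceeded 0.71 of the group's range. Chance alone gives about 1 such group in 20, though groups of genes that vary together are not independent. All values are normalised counts, and the diet's other 4 libraries are given as a range. At 0% RPS these were replicate 3 for Atp5f1b (48570 against 42380 to 43370) and for mt-Co3 (247100 against 277900 to 287300), and replicate 4 for mt-Nd1 (133200 against 117700 to 122000). At 2% RPS replicate 4 was low for Cox7a2 (4662 against 4956 to 5066) and for Sdhc (5538 against 6041 to 6175), and replicate 2 was low for the second Atp5po gene, ENSMUSG00000116933 (3.947 against 8.166 to 9.847). At 5% RPS replicate 4 was low for Atp5mc1 (6275 against 7042 to 7340) and Sdhd (7619 against 8199 to 8419), replicate 1 was low for Ndufa6 (4409 against 4934 to 5117), and replicate 2 was high for Atp5f1b (47470 against 42640 to 43810). At 10% RPS replicate 1 was high for Ndufa6 (5043 against 4459 to 4569) and for Cox8b (50.08 against 14.24 to 21.26). That library also had the highest adipose marker sum, 27646 against 1273 to 10837 in the other libraries, and without it the log2 fold change of Cox8b at 10% RPS was -0.15 in place of 0.29.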

How the results depend on the processing

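The nuclear and mitochondrial medians and the difference of both log2 ratios moved by less than the spread between mice under each alternative in which they were computed. That spread was the pooled SD within diets. It exceeded the nuclear median at 10% RPS, all mitochondrial medians and all ratio differences in size. Each of these could thus have reached 0 without counting as moved, and the rule cannot show that they are stable. The nuclear median lay between 0.12 and 0.22 at 2% RPS, 0.09 and 0.19 at 5%, and 0.04 and 0.14 at 10% (log2) with 1 mouse left out, and the mitochondrial median at 10% changed sign in 8 of 18 alternatives. Members past both thresholds were 0 at each level. With 1 mouse left out they numbered 0 to 1 at 2% and at 10% RPS, beside 1 to 10 and 62 to 201 of all genes. Without the 3 libraries numbered apart there was 1 at 10%, beside 67 of all genes. With no fold threshold there were 1 at 5% and 5 at 10%, beside 239 and 578 of all genes. In the trend the 2 members became 0 in edgeR, 1 with the epithelial covariate, 1 without the 3 libraries, and 0 to 2 with 1 mouse left out. In the likelihood ratio test the 2 became 0 in edgeR, 4 with the smooth muscle covariate, 6 with the epithelial covariate, 1 without the 3 libraries, and 0 to 16 with 1 mouse left out (16 without replicate 1 of 0% RPS). Over all genes 4.29% passed in the trend and 2.38% in the likelihood ratio test as reported. Shares under these alternatives are not given here, and the cause of the changes was not tested. Of 673 values of named members under other settings, 607 kept direction and side of the threshold, 27 changed sign without passing either time, 37 no longer passed, 2 passed newly (Cox6a1 without replicate 2 of 10% RPS and Uqcrb without replicate 1 of 0% RPS) and 0 reversed. No paired analysis was possible because no replicate number in the labels links mice of different diets. Depth limits Cox5b-ps and the second Atp5po gene.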

Other observations

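The noncoding genes of the mitochondrial genome were measured in libraries selected for poly-A tails. The large ribosomal RNA mt-Rnr2 had means of 41255, 40413, 49322 and 46460 normalised counts at 0, 2, 5 and 10% RPS, and its log2 fold change at 10% was 0.17 ± 0.16 (SE). The small ribosomal RNA mt-Rnr1 had means of 15309, 15211, 18818 and 17248. Over the mitochondrial rRNA and tRNA genes in the table and the 3 comparisons with 0% RPS, the lowest adjusted p in DESeq2 was 0.129, for mt-Ta.

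Other gene groups chosen after values were seen gave medians of a like size. The 78 mitochondrial ribosomal protein genes had median log2 fold changes of 0.10, 0.14 and 0.07 at 2, 5 and 10% RPS, and the 38 proteasome subunit genes had 0.13, 0.13 and 0.12. The 89 cytosolic ribosomal protein genes had 0.04, -0.01 and -0.12. Nuclear members with transcripts of up to 1000 bases had medians of 0.18, 0.15 and 0.10, and longer ones had 0.15, 0.12 and 0.09.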
